A study of Mus musculus with 20 samples.

Results

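Epiblast stem cells of the mouse hold the primed pluripotent state of the embryo after implantation, and the comparison here sets such cells at days 19 to 23 of their conversion from embryonic stem cells against the same cultures at day 10. It covers 8 of the 20 libraries of polyadenylated RNA in the series, 4 at each stage, chosen by line, experiment and day as the labels give them. The cells came from PGK, a female line, and from E14, a male one. Both had been kept in 2i medium, which holds cells in the naive state, and were then plated on fibronectin in N2B27 medium with activin A and Fgf2, split first at day 4 and every 2 days after that. Each line went through 2 experiments, diff2 and diff3. The later libraries were PGK diff2 at day 23, PGK diff3 at day 21, E14 diff2 at day 21 and E14 diff3 at day 19. Each has a day 10 library of the same line and experiment. No transgene, drug or deletion is named in the labels. With 1 line for each sex, line and sex cannot be told apart.

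Activin A acts through the receptors of the Nodal pathway. This signal keeps primed cells pluripotent, and stronger or longer signalling turns epiblast cells towards endoderm. Fgf2 acts through the ERK kinases and holds cells in the primed state. At the front of the streak-stage embryo, endoderm and the cells that lay down the axis express Sox17, Foxa2, Cer1 and Lhx1, and the enzyme Cyp26a1 breaks down retinoic acid, a signal that drives cells out of pluripotency.

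The libraries held 11847559 to 25556948 counts at day 10 and 15643156 to 26936415 at days 19 to 23. Levels are given in CPM, the count divided by the library's total and put on the same scale for all libraries, and a floor of 3 counts was 0.111 to 0.253 CPM. Replicates of a stage and line correlated at r of 0.911 to 0.979 across genes, and no library was a copy of another. Markers of primed cells were present at both stages, as the labels say. Fgf5, a ligand of the primed state, measured 301, 438, 239 and 279 CPM in the day 10 libraries of PGK diff2, PGK diff3, E14 diff2 and E14 diff3, and 373, 331, 304 and 380 CPM in the later libraries in that order, which all lists of values below keep. Pou3f1, another primed marker, was lower later in each culture, at 106, 48.5, 103 and 119 CPM and then 58.0, 44.0, 36.2 and 24.4 CPM. The summed CPM of the naive markers Klf4, Esrrb, Tfcp2l1 and Zfp42 was 31.8 and 26.1 in PGK and 24.1 and 13.7 in E14 at day 10. At days 19 to 23 it was 18.2 and 16.2 in PGK and 25.3 and 21.6 in E14, so both PGK cultures were lower and both E14 cultures higher. The 2 day 10 libraries of diff2 carry a library code in their titles and the other 6 do not, so the code goes with part of day 10. Markers of other cells were also read. The summed CPM of the 8 feeder or fibroblast markers was 23 and 36.1 in PGK and 63.9 and 49.7 in E14 at day 10, against 130 and 125 in PGK and 208 and 46.4 in E14 at the later stage, with Lum at 0 in 5 of the 8 libraries. The summed CPM of the 4 visceral endoderm markers was 3.71 and 8.92 in PGK and 0.499 and 4.73 in E14 at day 10, against 3.52 and 6.16 in PGK and 20.8 and 68.4 in E14 later. Of these 4, Afp and Ttr stayed at or under 1.18 CPM in all 8 libraries, while in E14 Hnf4a went from 0.416 and 2.31 to 18.8 and 58.6 CPM and Apoa1 from 0.0832 and 2.03 to 1.93 and 8.48 CPM.

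No gene passed the test in the comparison pooled over the lines. Of 13693 genes tested, edgeR called 0 (0%) at an adjusted p under 0.05, with a smallest adjusted p of 0.0984. Without adjustment, 1721 genes had a p under 0.05 (12.6%), with 782 higher (5.71%) and 939 lower (6.86%) at days 19 to 23. By DESeq2, 337 of the 18318 genes it fitted were called (1.84%), and by limma on the deposited log2 values 0. In 827 genes (6.04%) all 4 later libraries lay beyond all 4 day 10 libraries, above them in 468 (3.42%) and below them in 359 (2.62%). The median log2 fold change of all genes was -0.02. The edgeR fit allowed 1 change for both lines and left 5 residual degrees of freedom.

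The gene with the smallest p was Lmx1a, a LIM homeobox factor of the midbrain floor plate. It measured 2.36, 1.89, 0.749 and 0.939 CPM at day 10 and 20.3, 13, 10.7 and 6.59 CPM at days 19 to 23. The 2 stages did not overlap, and the log2 fold change was 3.13 with a standard error of 0.35 (edgeR adjusted p = 0.0984, DESeq2 adjusted p = 2.1e-14). Susd5, a membrane protein with a sushi domain, came next, with 0.422, 0.429, 0.416 and 0.313 CPM at day 10 and 3.45, 5.32, 5.49 and 8.28 CPM later. The day 10 values of Susd5 lay within a narrow range near the floor, and its log2 fold change was 3.78 with a standard error of 0.46 (edgeR adjusted p = 0.104). Both lines thus stood higher for these 2 genes at the later stage, by 2.99 in PGK and 3.29 in E14 for Lmx1a and by 3.35 and 4.21 for Susd5 on the log2 scale.

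**Figure D1:**
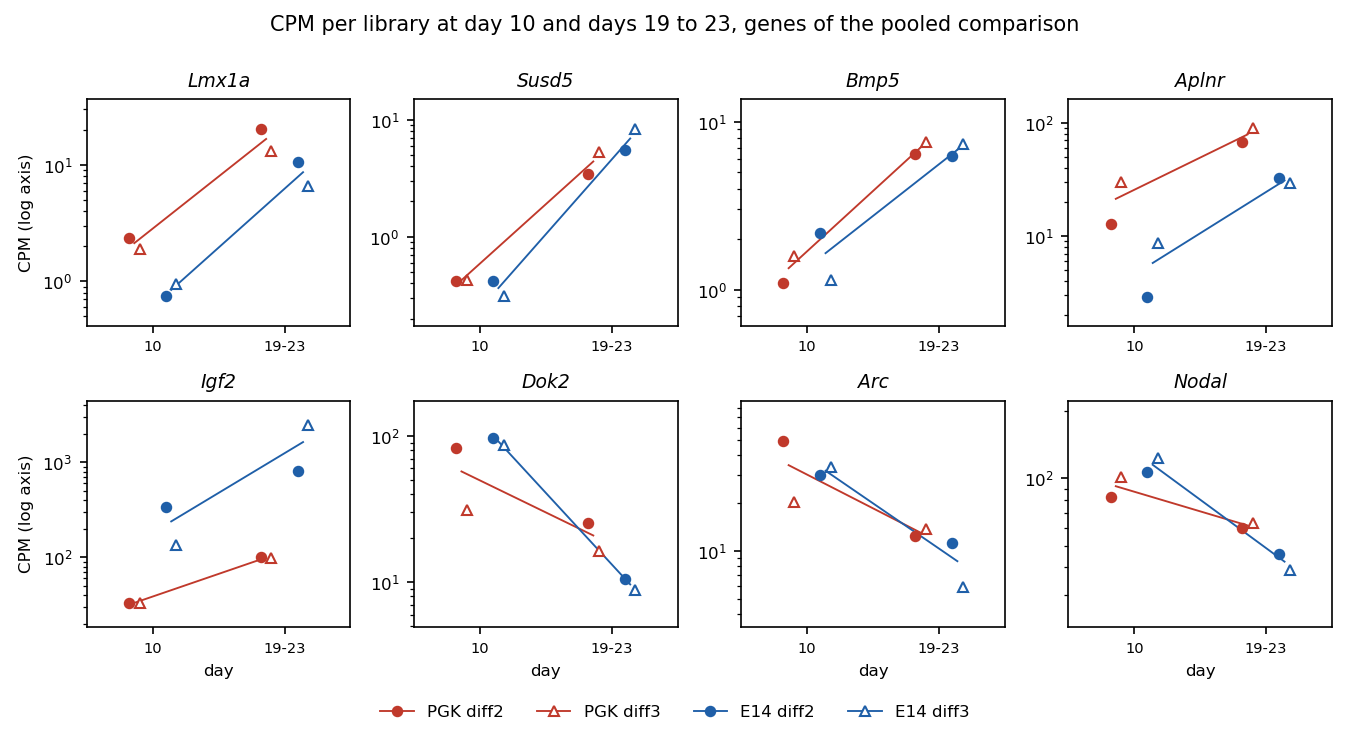
CPM (log axis) of 8 genes in each of the 8 libraries at day 10 and at days 19 to 23, with PGK in red, E14 in blue, diff2 as filled circles and diff3 as open triangles, and lines joining the mean of each line. All 4 later points lie above all 4 day 10 points for Lmx1a, Susd5 and Bmp5 and below them for Dok2, Arc and Nodal, while for Igf2 the 2 lines sit on separate levels. Igf2 and Nodal were chosen after their values were seen.

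The 20 genes with the smallest p also held ligands, receptors and transporters. Bmp5, a ligand of the BMP family, measured 1.10, 1.59, 2.16 and 1.13 CPM at day 10 and 6.46, 7.56, 6.24 and 7.36 CPM later, a log2 fold change of 2.20 with a standard error of 0.38 and no overlap. Aplnr, the apelin receptor of migrating mesoderm and endoderm, measured 12.7, 29.7, 2.91 and 8.65 CPM at day 10 and 68.0, 89.2, 32.3 and 29.4 CPM later. PGK stood above E14 at each stage for Aplnr, so its stages overlapped across the lines although each of the 4 cultures was higher later (log2 fold change 2.10, standard error 0.39). Oprk1, the kappa opioid receptor, and Frem1, a protein of the basement membrane, had log2 fold changes of 2.40 and 2.44. Cd36, a fatty acid transporter, had 2.79, and Slc8a3, a sodium and calcium exchanger, had 3.49. Gata1, the factor of red blood cells, was at 0.129 to 0.626 CPM at day 10 and 1.09 to 9.46 CPM later. Naip5 and Naip2, sensors of bacterial proteins, had log2 fold changes of 3.19 and 3.32. These 2 belong to a family of near-identical copies, so their counts are uncertain. Slc8a3, at 0.274 to 0.643 CPM, Naip2, at 0.117 to 0.499 CPM, and Gata1 were near the floor at day 10, so their fold changes rest on few counts.

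Of those 20 genes, 3 were lower at the later stage. Dok2, an adaptor protein that dampens kinase signalling, measured 83.1, 31.3, 96.7 and 87.0 CPM at day 10 and 25.5, 16.2, 10.5 and 8.84 CPM later (log2 fold change -2.35, standard error 0.46). Arc, an immediate early gene, measured 49.1, 20.3, 30.2 and 33.8 CPM at day 10 and 12.4, 13.7, 11.3 and 5.93 CPM later (log2 fold change -1.66, standard error 0.33). Nptxr, a neuronal pentraxin receptor, measured 3.97, 3.13, 1.91 and 14.7 CPM at day 10 and was at 0 in 3 of the later libraries and at 0.371 CPM in E14 diff2. In all 3 genes the stages did not overlap. The remaining members of the 20 were St6galnac3, Helz2, Plekhb2, H1f0, 1700084C01Rik and Itih5, with log2 fold changes of 1.17 to 2.66, each higher in all 4 cultures.

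Tested within each line in 1 fit of the same 8 libraries, the calls lay in E14. There edgeR called 57 genes (0.416%), 46 higher (0.336%) and 11 lower (0.0803%) at days 19 to 23, with a smallest adjusted p of 0.0422, while DESeq2 called 905 (4.94%) and limma 237 (1.29%). In PGK it called 0 (0%), and 273 genes (1.99%) had an unadjusted p under 0.05, while DESeq2 called 5 (0.0273%) and limma 0. The difference of the change between the lines was itself tested and gave 0 calls by edgeR (smallest adjusted p = 0.322, 721 genes or 5.27% at an unadjusted p under 0.05), 150 (0.819%) by DESeq2 and 0 by limma. With the culture as a replicate block, which pairs each later library with the day 10 library of its own experiment, E14 had 237 calls. The E14 calls rest on the spread of both lines. With only the 4 E14 libraries in the fit there were 0, and without any 1 of the 4 later libraries, those of PGK included, there were also 0, while all 57 kept their sign in each of those fits. Leaving out the E14 day 10 library of diff2 or of diff3 gave 873 or 667 calls, and leaving out both coded libraries of day 10 gave 2764.

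**Figure D2:**
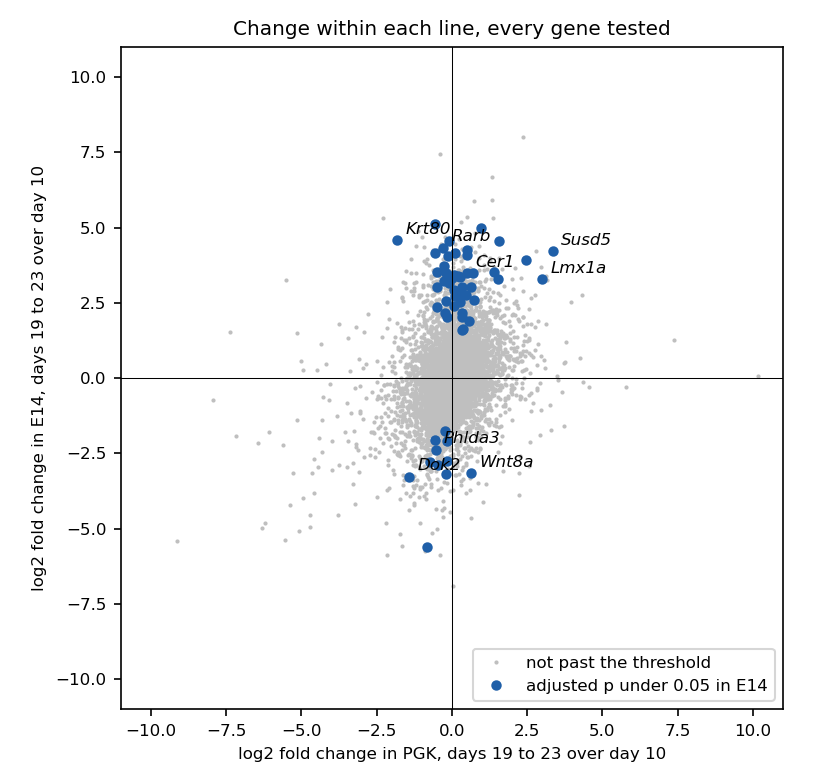
Log2 fold change from day 10 to days 19 to 23 in PGK (horizontal axis) and in E14 (vertical axis) for the 13693 genes tested, with the 57 genes past the threshold in E14 in blue. Most blue points lie near 0 on the PGK axis, and Lmx1a and Susd5 stand to the right of the rest.

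The 46 genes that rose in E14 had a median log2 fold change of 3.3 there and of 0.23 in PGK, whose libraries are separate ones. The 11 that fell had medians of -2.8 and -0.46. Over all genes the medians were -0.05 in E14 and 0 in PGK. Of the 46, 16 were higher in both PGK cultures, 7 were lower in both and 23 were mixed. Of the 11, 8 were lower in both PGK cultures, 1 was higher in both and 2 were mixed. The share of all genes for these counts was not worked out. All 46 had a PGK day 10 mean above the E14 day 10 mean, against 6508 of the 13693 genes tested, and all 11 had it below. The E14 day 10 values enter both the calls and this comparison of means.

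Genes of the anterior streak, endoderm and axis were among those that rose in E14. Cer1, a secreted inhibitor of Nodal, BMP and Wnt, measured 28.3 and 55.4 CPM in the E14 libraries at day 10 and 430 and 540 CPM at days 19 to 23 (log2 fold change 3.48, standard error 0.49, edgeR adjusted p = 0.0422). PGK measured 100 and 224 CPM of Cer1 at day 10 and 218 and 236 CPM later, so that both PGK libraries were already above both E14 libraries at day 10. Lhx1, a LIM homeobox factor of the organizer that was chosen after its values were seen, followed the same order, with 23.3 and 18.7 CPM in E14 at day 10, 196 and 227 CPM later, and 152 and 342 against 189 and 312 CPM in PGK. For Lhx1 the log2 fold change was 3.31 in E14 (standard error 0.44, edgeR adjusted p = 0.0422) and 0.01 in PGK. Streak genes as a list did not share this. Of 22 tested, 1 was called higher in E14, against 0.336% of all genes, and the median was -0.19. At an unadjusted p under 0.05, 4 (18.2%) were higher and 2 (9.09%) lower, against 7.32% and 6.77% of all genes. T, Mixl1 and Eomes were each higher later in E14 diff2 and lower in E14 diff3. Wnt8a, a streak ligand given below, was called lower in E14.

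Sox17, a master factor of endoderm, was not called by edgeR. It measured 47.9, 120, 19 and 27.6 CPM at day 10 and 98.8, 107, 101 and 200 CPM at days 19 to 23, a pooled log2 fold change of 1.46 with a standard error of 0.55 (edgeR adjusted p = 0.36). The PGK diff3 culture was high at day 10 and was the only 1 of the 4 without a higher later value. Within E14 the log2 fold change of Sox17 was 2.65 (standard error 0.51, edgeR adjusted p = 0.0685, DESeq2 adjusted p = 1.4e-05), and within PGK 0.29. Of the 22 endoderm genes tested, 7 (31.8%) were higher and 1 (4.55%) was lower in the pooled comparison at an unadjusted p under 0.05, against 5.71% and 6.86% of all genes. The list's median log2 fold change was 1.30 pooled, 2.63 in E14 and -0.19 in PGK. In E14, 3 of the 22 were called higher, Cer1, Cyp26a1 and Spink3, against 0.336% of all genes. There, 15 (68.2%) were higher at an unadjusted p under 0.05, against 7.32% of all genes. The extraembryonic endoderm list, which shares Sox17, Gata4 and Gata6 with it, also leaned upward. Of its 19 genes tested, 4 (21.1%) were higher pooled and 7 (36.8%) in E14 by that measure, and none was lower. Its median was 0.68 pooled, 1.25 in E14 and 0.24 in PGK. The summed CPM of the 6 definitive endoderm markers was 957, 1364, 216 and 710 at day 10 and 976, 927, 959 and 1255 later, of which Trh alone made up 778, 853, 153 and 621 CPM and then 624, 483, 555 and 521 CPM.

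Of other regulators in the endoderm list, Foxa2 and Gata6 were also lowest in the E14 libraries of day 10. Hnf4a, from the visceral endoderm markers, was low in both lines then. Foxa2, a pioneer factor of endoderm, measured 42.4, 108, 11.7 and 23.2 CPM at day 10 and 88.2, 113, 94.8 and 127 CPM later, with log2 fold changes of 2.61 in E14 and 0.42 in PGK. Gata6, a zinc finger factor of endoderm, measured 23.6, 89.5, 5.41 and 11.3 CPM at day 10 and 50, 84.5, 83.1 and 127 CPM later, with 3.58 in E14 and 0.24 in PGK. Hnf4a, a liver and visceral endoderm factor whose E14 values are given above, was 1.94 and 5.23 against 2.05 and 4.12 CPM in PGK. In E14 edgeR called none of these 3 (edgeR adjusted p = 0.0713, 0.067 and 0.0717), and DESeq2 called all 3 (DESeq2 adjusted p = 2.3e-05, 4.9e-07 and 4.5e-07). Epithelial members of the endoderm list did not share this, as Cldn4 and Krt19 had log2 fold changes of -1.67 and -0.86 in E14. In bulk RNA such as this, more cells of a type and more RNA per cell cannot be told apart.

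**Figure D3:**
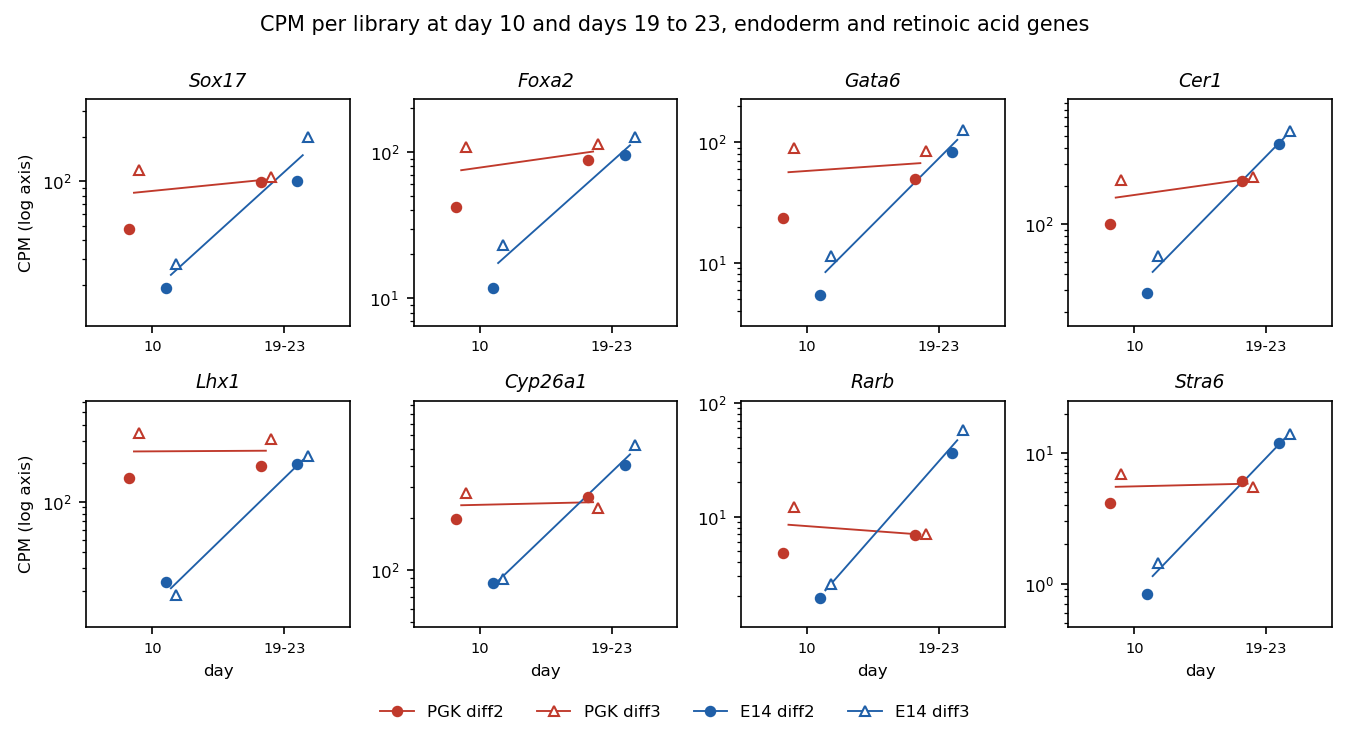
CPM (log axis) of 5 endoderm and axis genes and 3 retinoic acid genes in each library at day 10 and at days 19 to 23, with PGK in red, E14 in blue, diff2 as filled circles, diff3 as open triangles and lines joining the mean of each line. In each panel the 2 blue points of day 10 lie below both blue points of days 19 to 23 and below both red points of day 10.

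Retinoic acid genes were among the calls in E14, with 3 of the 18 tested higher past the threshold, against 0.336% of all genes, namely Cyp26a1, Rarb and Stra6, all chosen after their values were seen. Retinoic acid binds receptors that sit on direct repeats of a short half-site in DNA. Cyp26a1, the enzyme that breaks the acid down, and Rarb, 1 of its receptors, are classic targets that carry such an element beside their start. Both promoters are shown because the element was found in each, from RefSeq on GRCm38.p6. The 250 bases before the start site are given, with the pair of half-sites spaced by 5 bases (the DR5 retinoic acid response element, searched on both strands after the values were seen) in capitals. The Cyp26a1 window is chr19:37697558-37697807 on the plus strand. The Rarb window is chr14:16575477-16575726 on the minus strand, inside the span of the gene, which the GENCODE annotation sets at 16430839 to 16819156.
Cyp26a1: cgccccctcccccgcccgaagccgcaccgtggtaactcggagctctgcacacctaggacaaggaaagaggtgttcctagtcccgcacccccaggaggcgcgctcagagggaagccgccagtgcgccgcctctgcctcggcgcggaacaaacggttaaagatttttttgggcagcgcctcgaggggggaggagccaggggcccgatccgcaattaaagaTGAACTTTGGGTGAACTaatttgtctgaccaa
Rarb: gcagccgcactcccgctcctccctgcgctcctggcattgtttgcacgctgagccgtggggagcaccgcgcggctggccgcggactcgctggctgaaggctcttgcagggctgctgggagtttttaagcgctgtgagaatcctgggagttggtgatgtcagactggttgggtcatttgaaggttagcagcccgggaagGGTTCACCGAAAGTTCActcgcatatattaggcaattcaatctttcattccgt
Of all 32851 promoters in the table, 32 (0.0974%) hold this element, and of the 10124 tested genes with an entry 5 do, Blvrb, Cyp26a1, Prokr2, Rarb and Syndig1. A match describes the letters and shows no binding.

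Cyp26a1 measured 84.1 and 89.2 CPM in E14 at day 10 and 404 and 527 CPM at days 19 to 23 (log2 fold change 2.39, standard error 0.29, edgeR adjusted p = 0.0422). PGK stood at 196 and 277 CPM at day 10 and 264 and 229 CPM later, a log2 fold change of 0.06. Rarb rose from 1.91 and 2.58 CPM to 36.0 and 58.1 CPM in E14 (log2 fold change 4.33, standard error 0.57, edgeR adjusted p = 0.0422), while PGK measured 4.81 and 12.2 CPM and then 6.90 and 7.04 CPM. The later E14 libraries thus held more Rarb than any other of the 8. Stra6, the receptor that takes up retinol, rose in E14 from 0.832 and 1.45 CPM to 11.8 and 13.9 CPM (edgeR adjusted p = 0.0489). At days 27 to 30 the E14 libraries measured 325 and 143 CPM of Cyp26a1 and 16.3 and 16.4 CPM of Rarb. The list's median log2 fold change was -0.21 in E14 and 0.40 in PGK, against -0.05 and 0 over all genes. At an unadjusted p under 0.05, 5 of the 18 (27.8%) were higher and 3 (16.7%) lower in E14, against 7.32% and 6.77% of all genes. Rarg, another receptor of the acid, had a pooled log2 fold change of -0.88.

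Chac1, which breaks down glutathione and is a target of the stress factor Atf4, was not called by edgeR pooled, within either line or in the difference between the lines. It measured 50.6, 10.3, 2.41 and 2.03 CPM at day 10 and 14.2, 31.9, 54.8 and 45.0 CPM at days 19 to 23. The 2 E14 libraries were low at day 10 and high later, whereas the 2 PGK cultures moved in opposite directions. The log2 fold change was 1.95 pooled (standard error 1.13, edgeR adjusted p = 0.488), 4.46 in E14 (standard error 0.75, edgeR adjusted p = 0.0517, DESeq2 adjusted p = 2.8e-09) and -0.37 in PGK. The pooled value was 2.94 without the PGK diff2 library of day 10 and 3.07 without that of day 23, and 0.96 or 0.90 without the E14 day 10 library of diff2 or diff3. The difference between the lines was -4.83 for PGK minus E14 (edgeR adjusted p = 0.331, DESeq2 adjusted p = 5.7e-05). The E14 libraries of the other stages held 26.9 and 37.0 CPM of Chac1 at day 0, 87.5 and 37.6 CPM at day 4 and 59.2 and 36.5 CPM at days 27 to 30, so the day 10 pair was the lowest of the 10 E14 libraries.

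**Figure D4:**
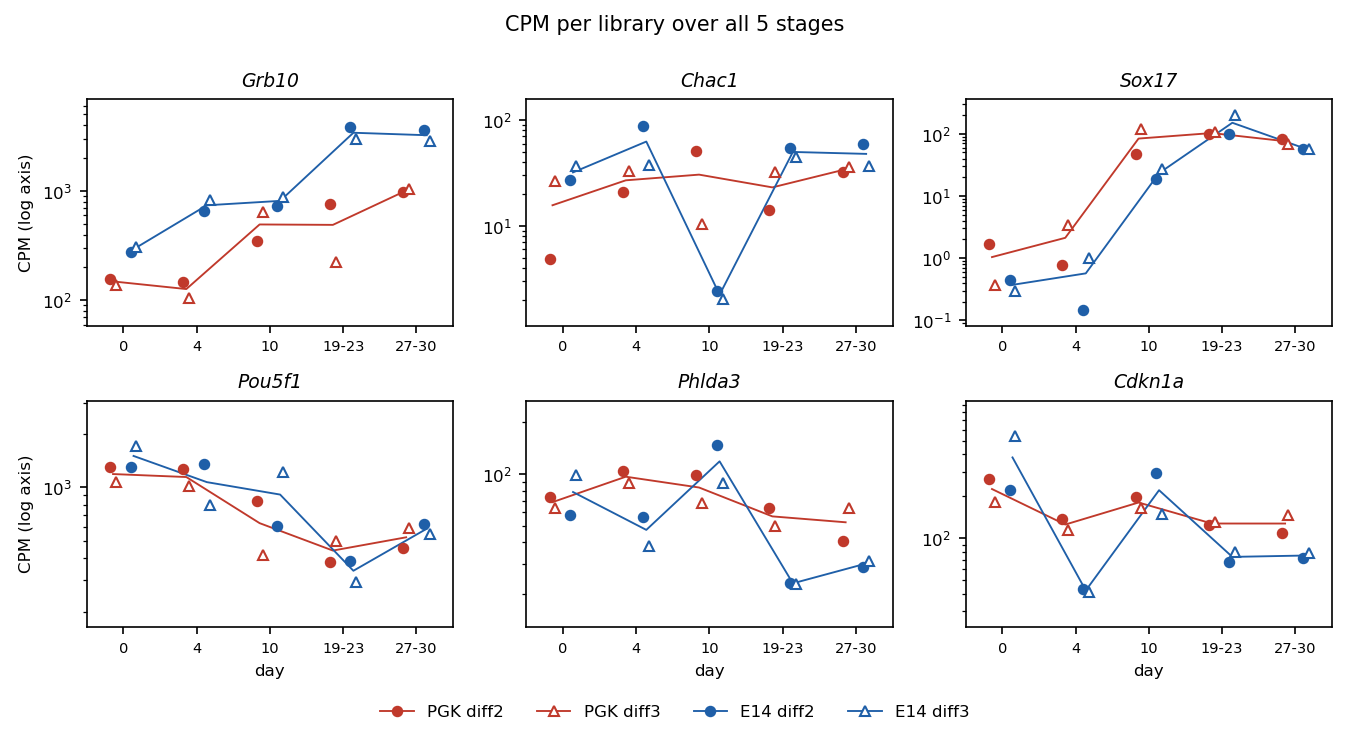
CPM (log axis) of 6 genes in all 20 libraries over the 5 stages, with PGK in red, E14 in blue, diff2 as filled circles, diff3 as open triangles and lines joining the mean of each line. The E14 day 10 libraries hold 2.41 and 2.03 CPM of Chac1, below every other library of the series, and Grb10 in E14 is 3826 and 2977 CPM at days 19 to 23.

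Amino acid shortage and endoplasmic reticulum stress act on Atf4, which binds the C/EBP-ATF response element (TGATGNAA, searched on both strands). Of the 49 genes tested in the list of amino acid stress and Atf4 targets, 3 rose in E14, against 0.336% of all genes, namely Vldlr, Slc1a4 and Herpud1, all chosen after their values were seen. A match lay near the start of each of these 3 and of Chac1, and these windows are shown for that reason, from RefSeq on GRCm38.p6 with the match in capitals. The Chac1 window is the 250 bases before the start, chr2:119350992-119351241 on the plus strand. The others are the match with 15 bases on each side, chr19:27216805-27216842 on the plus strand for Vldlr, chr11:20332695-20332732 on the minus strand for Slc1a4, where it spans the start site, and chr8:94386302-94386339 on the plus strand for Herpud1.
Chac1: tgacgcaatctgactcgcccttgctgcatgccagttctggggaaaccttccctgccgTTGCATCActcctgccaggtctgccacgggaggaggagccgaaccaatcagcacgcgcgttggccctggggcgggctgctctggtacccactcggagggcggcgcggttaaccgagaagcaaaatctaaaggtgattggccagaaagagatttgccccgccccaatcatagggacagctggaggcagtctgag
Vldlr: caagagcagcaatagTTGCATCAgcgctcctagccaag
Slc1a4: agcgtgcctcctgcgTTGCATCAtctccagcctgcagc
Herpud1: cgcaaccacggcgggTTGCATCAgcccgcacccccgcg
The element is held by 1304 of the 32851 promoters (3.97%) and by 271 of the 10124 tested genes with an entry (2.68%). It is held by 17 of the 38 list members with an entry (44.7%) and by 3 of the 44 E14 calls with an entry (6.82%), these 3 genes. The list was drawn up from known targets of Atf4, so its share is no result of these libraries. The TEAD motif (GGAATG) was in 11 of the 44 (25.0%), against 14.7% of all promoters and 14.9% of the tested genes with an entry. The CArG box was in 2 (4.55%), against 1.63% and 1.61%.

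Vldlr, a receptor for lipoproteins, rose in E14 from 27.2 and 14 CPM to 156 and 130 CPM (log2 fold change 2.78, standard error 0.39, edgeR adjusted p = 0.0422), and measured 63.9 and 59.9 CPM and then 52.1 and 96.0 CPM in PGK. Slc1a4, a transporter of alanine and serine, rose from 48.2 and 46.1 CPM to 156 and 139 CPM (log2 fold change 1.61, standard error 0.25, edgeR adjusted p = 0.0462). Herpud1, which helps to clear misfolded proteins, rose from 7.32 and 13 CPM to 49.4 and 44.3 CPM (log2 fold change 2.15, standard error 0.35, edgeR adjusted p = 0.0489). In PGK, Herpud1 measured 58.0 and 55.0 CPM at day 10 and 41.9 and 54.6 CPM later. Pooled over the lines, 9 of the 49 list members (18.4%) were higher and 1 (2.04%) lower at an unadjusted p under 0.05, against 5.71% and 6.86% of all genes. A positive log2 fold change was found in 38 of the 49 (77.6%), against 48.5% of all genes. The list's median was 0.30 pooled, 0.60 in E14 and 0 in PGK. Of other classic members, Ddit3, a factor of prolonged stress, had a pooled log2 fold change of -0.02, below the list's median, and Asns, asparagine synthetase, had 0.37, above it.

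Targets of p53, the factor that halts the cycle or starts apoptosis after damage, leaned the other way. Phlda3, a repressor of Akt, fell in E14 from 148 and 88.7 CPM to 23.1 and 23 CPM (log2 fold change -2.38, standard error 0.32, edgeR adjusted p = 0.0422), and measured 98.8 and 68.1 CPM and then 63.4 and 49.9 CPM in PGK, so that its 2 stages did not overlap over the 8 libraries. It was the only one of the 32 tested genes of the list that edgeR called in E14, against 0.0803% of all genes called lower. Pooled, none of the 32 was higher and 9 (28.1%) were lower at an unadjusted p under 0.05, against 5.71% and 6.86% of all genes. A positive log2 fold change was found in 3 of the 32 (9.38%), against 48.5% of all genes. Cdkn1a, the cell cycle inhibitor p21, measured 197, 165, 292 and 151 CPM at day 10 and 124, 131, 67.5 and 80.0 CPM later (pooled log2 fold change -1.04, standard error 0.28, edgeR adjusted p = 0.356, DESeq2 adjusted p = 0.0305). Aen, a nuclease, and Gtse1, a regulator of p53, also did not overlap, with pooled log2 fold changes of -1.07 and -0.89. Pmaip1, a trigger of apoptosis, had -2.30 (edgeR adjusted p = 0.356, DESeq2 adjusted p = 0.0028). The list's median log2 fold change was -0.55 pooled, -0.90 in E14 and -0.18 in PGK.

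**Figure D5:**
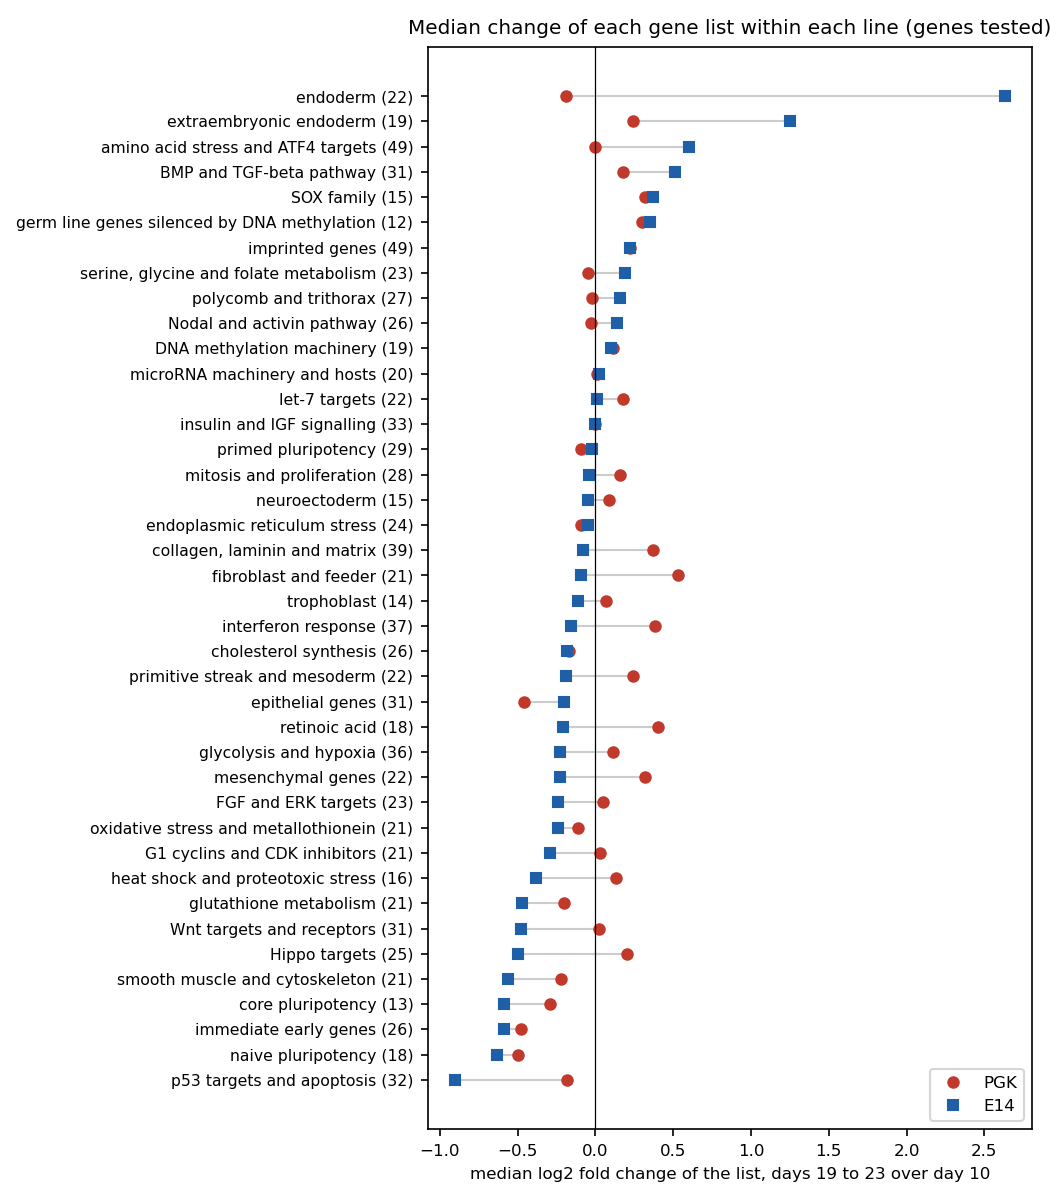
Median log2 fold change from day 10 to days 19 to 23 of each gene list with 10 or more genes tested, in PGK (red circles) and E14 (blue squares), with the number of genes tested in brackets. The endoderm list stands farthest apart between the lines, at -0.19 in PGK and 2.63 in E14, and the p53 list is the lowest in E14, at -0.90.

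Grb10, an imprinted adaptor that restrains insulin and IGF receptors, was not called by edgeR. It measured 349, 640, 736 and 887 CPM at day 10 and 755, 225, 3826 and 2977 CPM at days 19 to 23, a pooled log2 fold change of 1.01 with a standard error of 0.53 (edgeR adjusted p = 0.447). Both E14 cultures were higher later, by 2.03 on the log2 scale (standard error 0.56, edgeR adjusted p = 0.148, DESeq2 adjusted p = 0.0038), whereas in PGK 1 culture was higher and 1 lower. At days 27 to 30 Grb10 was 3587 and 2870 CPM in E14 and 972 and 1044 CPM in PGK. Igf2, an imprinted growth factor chosen after its values were seen, measured 33.4, 33.1, 342 and 136 CPM at day 10 and 101, 98.2, 801 and 2465 CPM later, higher later in all 4 cultures, with E14 above PGK at both stages (log2 fold change 2.18, standard error 0.43, edgeR adjusted p = 0.356, DESeq2 adjusted p = 0.0001). Of the 49 imprinted genes tested, 8 (16.3%) were higher and 2 (4.08%) lower at an unadjusted p under 0.05, against 5.71% and 6.86% of all genes, with a median of 0.25. Those lower were Magel2 and Meg3, with log2 fold changes of -1.62 and -1.03. Peg12 and Usp29, among those higher, had 1.46 and 1.57.

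The pluripotency factors stayed expressed. Pou5f1 (Oct4) measured 842, 416, 606 and 1215 CPM at day 10 and 381, 501, 385 and 293 CPM later, with overlap between the stages and a log2 fold change of -0.98 (standard error 0.34, edgeR adjusted p = 0.356). It was -1.47 in E14 (edgeR adjusted p = 0.174, DESeq2 adjusted p = 0.0194) and -0.49 in PGK. Pooled, Sox2 had -0.15 (standard error 0.28), Nanog -0.51 (standard error 0.31) and Dnmt3b, the de novo DNA methyltransferase of primed cells, 0.27 (standard error 0.27). Nanog had -1.01 in E14 (edgeR adjusted p = 0.291, DESeq2 adjusted p = 0.153) and -0.01 in PGK. Otx2, a factor of the primed epiblast and the anterior endoderm, had 0.82 pooled (standard error 0.42) and 1.79 in E14 (edgeR adjusted p = 0.0717, DESeq2 adjusted p = 0.0003). T (brachyury), the streak factor, had 0.13 (standard error 0.37), and its sign turned when either diff2 library of day 10 was left out. Of the 13 core pluripotency genes, none was higher and 4 (30.8%) were lower at an unadjusted p under 0.05, against 5.71% and 6.86% of all genes, the 4 being L1td1, Pou5f1, Tdgf1 and Utf1. Utf1, a chromatin protein of pluripotent cells, measured 213, 81.9, 143 and 268 CPM at day 10 and 78.1, 62.3, 69.7 and 35.7 CPM later, without overlap (log2 fold change -1.53, standard error 0.39). Of the 18 naive pluripotency genes tested, 1 (5.56%) was higher and 5 (27.8%) were lower pooled at an unadjusted p under 0.05, against the same 5.71% and 6.86%. Lifr was higher, and Dppa5a, Esrrb, Fgf4, Spp1 and Tdh were lower. Of the 29 primed pluripotency genes, 4 (13.8%) were higher and 5 (17.2%) lower pooled by that measure. In E14, 6 (20.7%) were higher and 7 (24.1%) lower, against 7.32% and 6.77% of all genes.

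Of the Nodal and activin, BMP and TGF-beta, Wnt, FGF and ERK, and Hippo lists, edgeR called no gene pooled, as it called 0 of all 13693 genes. DESeq2 called 2 higher and 3 lower in the first of these lists, 2 higher in the second and 1 higher in the last. Of the same 13693 genes, from which these list counts come, DESeq2 called 168 higher and 151 lower. Of all 18318 genes it fitted, it called 0.939% higher and 0.901% lower. In E14, edgeR called 1 gene higher in the first list, 1 lower in the Wnt list and 1 higher in the Hippo list. Its shares of all genes there were 0.336% higher and 0.0803% lower. At an unadjusted p under 0.05, 8 of the 23 FGF and ERK genes (34.8%) were lower in E14 and none was higher. Of all genes, 6.77% were lower and 7.32% higher there. Nodal, the ligand whose receptors activin A shares, measured 82.8, 102, 106 and 123 CPM at day 10 and 60.0, 63.1, 46.0 and 38.8 CPM later, without overlap (log2 fold change -1.03, standard error 0.22, edgeR adjusted p = 0.356, DESeq2 adjusted p = 0.0074). Tdgf1, the co-receptor of Nodal, had -1.85 and Gdf3, a related ligand, -1.95. Of 26 genes of this pathway, 3 were higher (11.5%) and 4 lower (15.4%) at an unadjusted p under 0.05, against 5.71% and 6.86% of all genes. Tgfb2, a TGF-beta ligand, measured 26.3, 43.4, 45.4 and 22.0 CPM at day 10 and 87.4, 49.1, 170 and 253 CPM later, without overlap (log2 fold change 1.81, standard error 0.43). In the BMP and TGF-beta list, 7 of 31 genes (22.6%) were higher and none was lower at an unadjusted p under 0.05, against the same 5.71% and 6.86%. Those higher included Bmp2, Bmp5, Bambi and the receptors Bmpr1a and Tgfbr1. Wnt8a, a streak ligand chosen after its values were seen, fell in E14 from 20.0 and 20.0 CPM to 2.38 and 2.20 CPM (log2 fold change -3.16, standard error 0.42, edgeR adjusted p = 0.0422), and measured 4.64 and 5.27 CPM and then 6.97 and 8.32 CPM in PGK.

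Matrix and adhesion genes moved in both directions. Col3a1 measured 1.77, 6.43, 3.24 and 2.07 CPM at day 10 and 11.1, 26.4, 23.3 and 5.52 CPM later, and Col1a2 5.91, 13.3, 33.4 and 26.6 CPM and then 64.7, 49.2, 122 and 25.1 CPM. These 2 fibrillar collagens had pooled log2 fold changes of 2.29 and 1.90 (edgeR adjusted p = 0.356 for each, DESeq2 adjusted p = 0.0048 and 0.0112), and E14 diff3 was the low library of the later stage in both. They are also feeder and fibroblast markers, of which the summed levels are given above, and the part of such cells in these values was not tested. At an unadjusted p under 0.05, 5.71% of all genes were higher and 6.86% lower. Of the 21 feeder and fibroblast genes, 6 (28.6%) were higher and none lower by that measure. Of the 39 genes of collagens, laminins and matrix, 9 (23.1%) were higher and 5 (12.8%) lower. The 9 included Lama1, Lama4 and Nid1, and the 5 included Hspg2, Lama3, Nid2 and Col18a1, so laminins and nidogens went both ways. Of 31 epithelial genes, 1 (3.23%) was higher and 8 (25.8%) were lower by the same measure, with a median of -0.35. St14, a membrane protease of epithelia, measured 265, 131, 381 and 128 CPM at day 10 and 115, 73.7, 79.1 and 79.5 CPM later, without overlap (log2 fold change -1.37, standard error 0.36). Prrx1, a mesenchymal homeobox factor, rose in E14 from 0.249 and 0.626 CPM to 7.68 and 15.2 CPM (log2 fold change 4.56, standard error 0.71, edgeR adjusted p = 0.0462), with 2.11 and 3.64 CPM and then 8.12 and 9 CPM in PGK. Its day 10 value in E14 diff2 was at the floor of 3 counts.

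The remaining genes that rose most in E14 while standing higher in all 4 cultures included receptors and signalling proteins. Vav3, a guanine nucleotide exchange factor, Dgkk, a diacylglycerol kinase, and Gpc3, a glypican of the cell surface, had log2 fold changes in E14 of 3.01, 2.77 and 2.60 (edgeR adjusted p of 0.0489, 0.0422 and 0.0462). Dgkk measured 43.6 and 42.9 CPM in E14 at day 10 and 310 and 294 CPM later, against 104 and 207 and then 222 and 207 CPM in PGK. In PGK diff3, Dgkk was 206.5 CPM at day 10 and 207.0 CPM later, so that culture was all but unchanged. Dgkk, Gpc3 and Gata1 lie on chromosome X, and PGK is female and E14 male. The part of X dosage in their values was not tested. Sorcs2, a sortilin receptor, had 4.08. Six3os1 had 4.98, but it lies antisense to Six3 and no source used here says whether counting used the strand. Naip5, Susd5, Lmx1a, Frem1 and Oprk1 were called in E14 as well, with log2 fold changes of 3.29 to 4.21 there.

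Among genes that fell in E14 and stood lower in all 4 cultures, leaving out genes named only as clones, Dok2 had the largest change, -3.28 (standard error 0.47, edgeR adjusted p = 0.0422), and -1.43 in PGK. Cysltr1, a leukotriene receptor, fell from 20.9 and 20.5 CPM to 2.45 and 2.20 CPM in E14 and was 9.12 and 6.30 CPM and then 7.80 and 5.40 CPM in PGK. Ppp4r4, a regulatory subunit of protein phosphatase 4, fell from 207 and 180 CPM to 41.0 and 17.4 CPM in E14 and was 110 and 114 CPM and then 106 and 92.6 CPM in PGK. For these 2 genes the PGK libraries of both stages lay between the early and the late E14 libraries. Cysltr1 also lies on chromosome X. Baiap2, a protein of membrane protrusions, and Rap2b, a small GTPase, had log2 fold changes in E14 of -2.05 and -1.77.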

How the data were processed

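The authors deposited raw counts per gene and variance-stabilized log2 values, per the file headers, for 23361 entries, 27 of them with names turned into dates. Per the submitters' processing notes, CASAVA 1.8.2, Cuffdiff, DESeq2 and GRCm38 (mm10) are named, without their roles. Aligner, annotation and use of strand: not given in the sources used here.

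Groups came from the labels, which name the experiment; libraries of a line with the same number share a differentiation series and are thus paired (their deviations correlated at r = -0.0473 in PGK and 0.0632 in E14). Counts were tested with edgeR 4.0.16 in R 4.3.3 (TMM, filterByExpr with a minimum count of 10, robust quasi-likelihood, Benjamini-Hochberg, threshold 0.05) with line and stage as terms, and with their interaction for changes within lines and their difference, which left 4 residual degrees of freedom. P-values measure the spread between these libraries. A standard error is the log2 fold change over the square root of F. The functions were tested on simulated data. Alternatives used DESeq2 1.42.0 and limma 3.58.1 on the deposited log2 values. No set test was run.

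Named were 10 fixed genes, the 20 with the smallest pooled p, as fewer than 20 passed, and called genes of E14 with a mean log2 CPM of at least 1 in the higher stage and 1 direction in all 4 cultures, up to 12 rises and 12 falls, without predicted genes. The comparison, the 43 lists and these rules were chosen with earlier results of these data known.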

Additional observations from a re-analysis of the deposited data

How the results depend on the processing

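For the pooled comparison, edgeR called 0 genes, DESeq2 337 and edgeR without a filter on low counts 2. Leaving out 1 library at a time gave 0 to 1 calls, with 1 without E14 day 10 of diff3. The replicate block and the other settings gave 0. The signs of 3 genes far from the threshold turned. Sox2, at -0.15, ran from -0.32 to 0.19 without 1 library, at 0.19 without E14 day 10 of diff3. Fgf5 was -0.066 with a term for the library code and -0.092 without the coded libraries, and T was -0.40 and -0.41 there. T ran from -0.11 to 0.66 without 1 library, with -0.058 without PGK and -0.11 without E14 day 10 of diff2.

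Within E14 the 57 calls became 905 with DESeq2, 359 without the filter and 237 with the replicate block. Alternatives chosen after seeing the data gave 237 with limma, 18 with all 20 libraries, of which 7 were among the 57, 206 with the code term, 2764 without the coded libraries and 0 with E14 alone. Without 1 library, likewise added, the count ran from 0 to 873, at 873 without E14 day 10 of diff2 and 667 without that of diff3, where a lone E14 day 10 library is assumed to vary like the others. All 57 kept their sign in each of these. Within PGK the count was 0 throughout but for 5 with DESeq2. For the difference between lines, 0 calls became 150 with DESeq2, 34 without the filter and 0 to 34 without 1 library, at 34 without E14 day 10 of diff2 and 10 without that of diff3, and the replicate block gave 0. Chosen after seeing the data, the code term gave 21 and leaving out the coded libraries 482. The cause of these shifts was not tested. With 2 libraries per line and stage, genes that were not called may still have changed.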
